A study of Mus musculus with 16 samples.

Results

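Transcripts of 9 secretory genes of the airway lining were followed in mouse lung, namely Scgb1a1, Scgb3a1, Scgb3a2, Bpifa1, Retnla, Muc5b, Muc1, Reg3g and Ltf. They were chosen by name, and every non-control probe that carries one of these names was taken (Bpifa1 stands on the array under its older name Plunc). This gave 12 probes for 9 genes, of 41174 probes for 27703 gene names in all, with 2 probes each for Retnla, Muc1 and Ltf. All 12 probes were well above background in the lung channel on 16 of 16 arrays, so each of the 9 genes was among the 21249 genes tested.

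The lungs came from 16 female A/J mice, a strain that readily forms lung tumours, in 4 groups of 4. NNK+SECY mice had 1 intraperitoneal injection of the tobacco nitrosamine NNK (10 uM in 0.2 mL of saline) and, from 3 days later, 15 ppm selenocystine (SECY) in the diet for 10 days. NNK mice had the injection alone, SECY mice had the selenocystine diet alone for 10 days, and Untreated mice had neither. All had been kept for 1 week on an AIN-76 diet, whose basal selenium is 0.35 ppm, and injected mice were killed at 13 days after NNK. No saline-injected group was analysed here, and the whole lung was homogenised. Each lung was labelled in Cy5 and hybridised beside a Cy3-labelled pool of the 4 Untreated lungs, with no dye swap. Values are log2(Cy5/Cy3), so 0 is the level of the pool, and an Untreated lung is compared with a pool that contains it.

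Club cells are secretory cells of the bronchioles. They release the secretoglobins, which are small proteins abundant in airway fluid, and they share with other airway cells the release of mucins and antimicrobial proteins. They also hold much of the cytochrome P450 of the mouse lung, including Cyp2a5, an enzyme able to activate NNK, which makes them a known site of NNK activation. In homogenised lung, fewer cells of a type and less RNA per cell cannot be told apart, and Retnla, Reg3g, Muc1 and Ltf are also made by cells other than club cells.

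The arrays differed in ways that touch every comparison. Slides 1 to 4 each held 1 NNK and 1 Untreated lung, and slides 5 to 8 each held 1 NNK+SECY and 1 SECY lung. All arrays of NNK-injected mice were scanned on one day and all others on another, so scan day and NNK cannot be told apart, and slide set and diet cannot be told apart. Between 66.3% and 79.3% of probes were well above background in Cy5, and 12 to 22 spots per array were saturated in Cy5. Array SECY 3 stood apart, with a mean correlation of 0.0389 with the other SECY arrays, against 0.125 to 0.566 for the other arrays within their own groups.

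Scgb1a1, the major secretoglobin of club cells, could not be compared between groups, because its spot was at the scanner's ceiling. Its raw Cy5 signal lay between 65233 and 65242 on the 16 arrays, was flagged as saturated on 16 of 16, and had every pixel saturated on 16 of 16. The Cy3 pool was flagged as saturated on 13 of 16 arrays, with raw signals of 59948 to 65231. The 4 NNK+SECY, 4 NNK and 4 SECY arrays were saturated in both colours, and among the 4 Untreated arrays 1 was saturated in Cy3. The log2 ratios, which lay between -0.79 and -0.45, are therefore ratios of 2 ceilings after normalization on 13 arrays. On the other Untreated arrays they set a Cy5 ceiling against a Cy3 signal that was not flagged. No fold is given.

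Scgb3a2, a secretoglobin of the bronchioles, was close to the ceiling. Its Cy5 spot was flagged as saturated on 2 of 4 NNK+SECY arrays, 4 of 4 NNK arrays, 2 of 4 SECY arrays and 2 of 4 Untreated arrays. Some saturated pixels were present on 12 of 16 arrays, and on the Cy3 side on 0 of 16. The lowest Cy5 signals were 33954 on SECY 3 and 48655 on Untreated 3, while the other 14 were at 62545 or above. Its log2 ratio was -0.25, 0.10, -0.98 and 0.18 in SECY lungs, against -0.12, 0.10, -0.26 and 0.08 in Untreated lungs, a difference of -0.19 ± 0.18 (SE, limma, adjusted p = 0.893) on 8 arrays of which 4 were saturated. Without SECY 3 it was 0.06 (adjusted p = 0.891), so its direction rests on that array. Apart from SECY 3 and Untreated 3, these arrays had Cy5 signals of 63115 to 65241, at or near the ceiling. Neither value is therefore a reliable fold. No fold is given for NNK lungs, in which all 4 spots were saturated.

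Scgb3a1, a secretoglobin of larger airways, was measured well below the ceiling, at raw Cy5 signals of 3847 to 9278. Its log2 ratio was -0.13, -0.14, -0.34 and -0.18 in NNK+SECY lungs, -0.15, 0.21, 0.10 and 0.12 in NNK lungs, 0.13, 0.21, -0.64 and 0.22 in SECY lungs, and 0.06, 0.28, -0.18 and 0.01 in Untreated lungs. The 4 NNK+SECY lungs were all below 0, and they overlapped the Untreated lungs through Untreated 3. The difference of NNK+SECY from Untreated was -0.24 ± 0.15 (adjusted p = 0.742) and that of NNK from Untreated was 0.03 ± 0.15 (adjusted p = 1.00), neither past the threshold of 0.05. SECY against Untreated was -0.06 ± 0.15 with SECY 3, and 0.15 without it (adjusted p = 0.596), so its direction rests on that array.

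**Figure D1:**
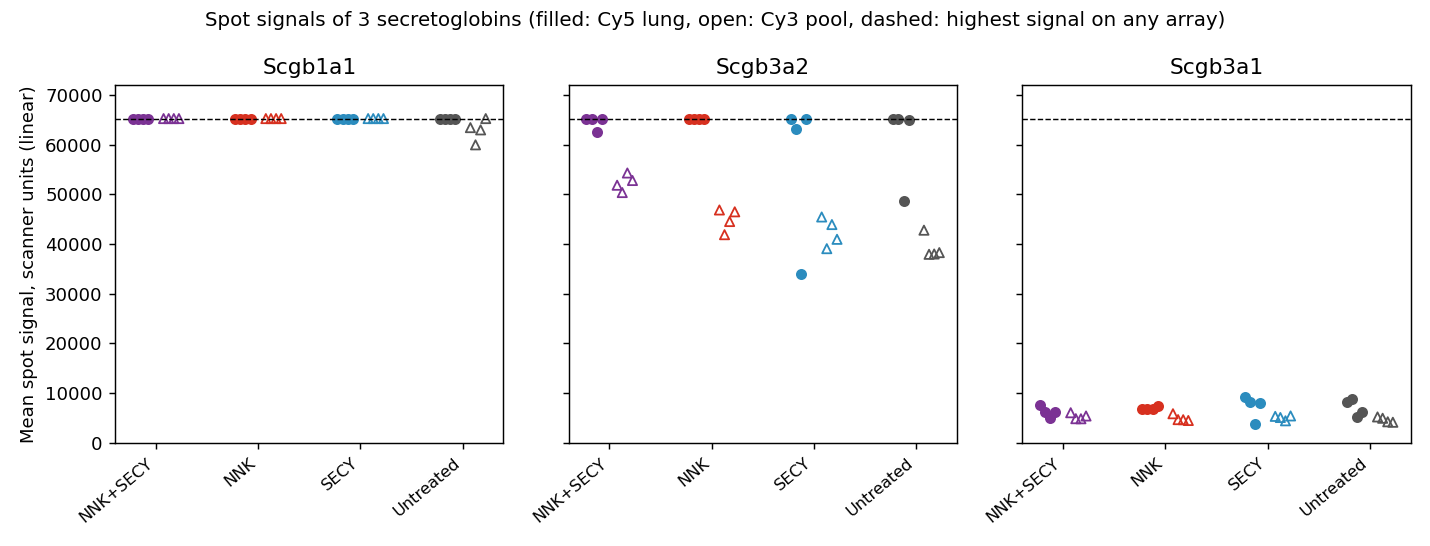
Mean spot signal in linear scanner units for Scgb1a1, Scgb3a2 and Scgb3a1, 1 point per array and colour, by group. Scgb1a1 lies at the ceiling in Cy5 in all 16 lungs, Scgb3a2 lies at or near it except on SECY 3 and Untreated 3, and Scgb3a1 lies between 3847 and 9278.

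Bpifa1 encodes a secreted, surface-active protein of the airway lining that acts on bacteria and on airway surface liquid. Of the 9 genes, 6 have an entry in RefSeq's table of promoters, and the sequences of Bpifa1 and Retnla are shown because these are the 2 genes with a call below. The 250 bases before the Bpifa1 start, chr2:154142630-154142879 on the plus strand of GRCm38.p6, read 5′ to 3′ as follows, with motif matches in capitals.
Bpifa1: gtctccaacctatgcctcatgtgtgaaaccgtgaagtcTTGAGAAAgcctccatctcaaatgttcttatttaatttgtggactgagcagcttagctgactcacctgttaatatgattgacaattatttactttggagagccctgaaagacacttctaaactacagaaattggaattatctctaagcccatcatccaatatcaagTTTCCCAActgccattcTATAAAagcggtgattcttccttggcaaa
The capitals mark a TATA box (TATAAA) at -29 to -24 and 2 matches to a C/EBP core (TTNNGNAA), at -212 to -205 and at -46 to -39. The search covered both strands and included a STAT6 site (the half-sites TTC and GAA with 4 bases between them), a FOXA core (TGTTTNC), an NK-2 class core (CAAGTG) and an antioxidant response element core (TGACNNNGC), with no match to these 4 in this window. No matches overlapped. Of 32851 promoter windows of this length, 12.4% held the TATA box, 36.8% the C/EBP core, 5.85% the STAT6 site, 17.8% the FOXA core, 11.6% the NK-2 core and 10.2% the antioxidant response element core.

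Bpifa1 was lower in both groups of NNK-injected mice, and the comparison of NNK+SECY with Untreated passed the threshold. Its log2 ratio was -0.47, -0.48, -0.59 and -0.89 in NNK+SECY lungs, -0.63, -0.76, -0.39 and -0.73 in NNK lungs, -0.21, -0.15 and -0.02 in SECY lungs (the SECY 3 spot was flagged as an outlier), and -0.11, -0.22, -0.10 and -0.36 in Untreated lungs. Each of the 8 NNK-injected lungs lay below each of the 7 measured lungs of mice that were not injected. Bpifa1 fell by 0.41 on the log2 scale in NNK+SECY against Untreated (SE 0.0986, 95% interval -0.62 to -0.21, limma, adjusted p = 0.0474, n = 4 per group). Neither of the other NNK contrasts passed: NNK against Untreated was -0.43 ± 0.0986 (adjusted p = 0.108) and NNK+SECY against SECY was -0.48 ± 0.11 (adjusted p = 0.479).

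In both NNK comparisons with Untreated the Cy5 signal of Bpifa1 differed by more than the signal of the pool. Between NNK+SECY and Untreated the Cy5 signal of Bpifa1 differed by -0.69 and the Cy3 signal by -0.28 on the log2 scale, and between NNK and Untreated by -0.56 and -0.13. Within slides, which hold an injected and an uninjected lung each, Bpifa1 was lower in the injected lung on 7 of 7 slides with a value, by -0.27 to -0.86. The diet contrasts were small: SECY against Untreated was 0.06 ± 0.11 and NNK+SECY against NNK was 0.02 ± 0.0986, with 95% intervals of -0.16 to 0.29 and -0.19 to 0.23. The call held under 10 of 25 alternatives. Among those where it held, Aquantile normalization between arrays leaves the log2 ratios unchanged. Leaving out saturated spots removed none of Bpifa1, so neither could end the call. It was lost, among others, with the authors' value table (limma, adjusted p = 0.0984), with slide as a random block (0.0504) and with robust eBayes (0.258). Leaving out 1 array also ended it, with an adjusted p of 0.139 without Untreated 1, 0.103 without Untreated 2, 0.154 without Untreated 3, and 0.0617, 0.0541, 0.0952 and 0.146 without NNK+SECY 1, 2, 3 and 4. The difference lay between -0.69 and -0.32 under all 25.

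Retnla, also called RELM-alpha or FIZZ1, is a secreted resistin-like protein that mouse airway epithelium and alternatively activated macrophages make in type 2 inflammation. The 250 bases before its start, chr16:48842359-48842608 on the plus strand of GRCm38.p6, read 5′ to 3′ as follows.
Retnla: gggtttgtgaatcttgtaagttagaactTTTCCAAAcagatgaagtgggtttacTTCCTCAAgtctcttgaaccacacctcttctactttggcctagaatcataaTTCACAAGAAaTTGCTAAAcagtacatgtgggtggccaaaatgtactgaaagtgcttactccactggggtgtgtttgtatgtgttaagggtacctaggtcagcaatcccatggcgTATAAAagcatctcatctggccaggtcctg
The capitals mark a TATA box at -30 to -25, a STAT6 site at -145 to -136 and 3 matches to the C/EBP core, at -222 to -215, -196 to -189 and -134 to -127, none of them overlapping. A match is a description of the letters and was not set against any binding data.

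Retnla was higher in NNK-injected lungs, and the comparison of NNK+SECY with Untreated passed the threshold. Its brighter probe was flagged on 5 arrays for uneven Cy3 pixels (NNK 2, NNK 4, SECY 1, SECY 4 and NNK+SECY 4), so the other probe, which has all 16 values, is given first. On that probe the log2 ratio was 1.41, 1.47, 1.04 and 0.89 in NNK+SECY lungs, 0.93, 1.02, 0.76 and 0.71 in NNK lungs, 0.30, 0.97, -0.36 and 0.42 in SECY lungs, and 0.26, 0.12, -0.16 and 0.20 in Untreated lungs. Every NNK+SECY lung and every NNK lung lay above every Untreated lung, and the SECY lungs were spread from the lowest value of the 16, SECY 3, to within the NNK range, SECY 2.

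On the brighter probe, which represents the gene in the model, the log2 ratio was 1.28, 1.32 and 0.80 in NNK+SECY lungs, 0.70 and 0.61 in NNK lungs, 0.81 and -0.43 in SECY lungs, and 0.11, -0.005, -0.21 and -0.008 in Untreated lungs. Retnla rose by 1.16 ± 0.23 in NNK+SECY against Untreated (95% interval 0.65 to 1.67, adjusted p = 0.0322, 3 against 4 lungs). The other probe gave 1.098 ± 0.20 (adjusted p = 0.00874 over all probes tested). The difference of NNK from Untreated was 0.68 ± 0.26 (adjusted p = 0.861) on the brighter probe, with 2 NNK lungs, and 0.75 ± 0.20 (adjusted p = 0.292 over probes) on the other. NNK+SECY against SECY was 0.94 ± 0.28 (adjusted p = 0.790) and 0.87 ± 0.20 (adjusted p = 0.488 over probes), and none of these NNK contrasts passed. On the brighter probe, with 2 SECY lungs, NNK+SECY against SECY was 1.56 without SECY 2, where it passed (adjusted p = 0.0231), and 0.32 without SECY 3 (adjusted p = 0.711).

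Within slides the injected lung was higher on 8 of 8 slides for the other Retnla probe, by 0.47 to 1.40, and on 4 of 4 slides with a value for the brighter one, by 0.51 to 1.23. On the probe in the model, the Cy5 signal of Retnla differed by 1.57 between NNK+SECY and Untreated and the Cy3 signal by 0.42. NNK+SECY against NNK was 0.48 ± 0.28 (adjusted p = 0.635), and the groups, apart on the brighter probe with 3 against 2 lungs, overlapped on the other, where the difference was 0.34 ± 0.20. The call in NNK+SECY against Untreated held under 15 of 26 alternatives, of which Aquantile and leaving out saturated spots could again not end it. It was lost with the processed signals (adjusted p = 0.0625), the authors' value table (0.0627), median centring (0.0554) and robust eBayes (0.0554). Leaving out 1 array ended it with an adjusted p of 0.0615, 0.0780, 0.09997 and 0.0869 without Untreated 1, 2, 3 and 4, and of 0.136, 0.137 and 0.0517 without NNK+SECY 1, 2 and 4. The difference lay between 1.06 and 1.57 under all 26.

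**Figure D2:**
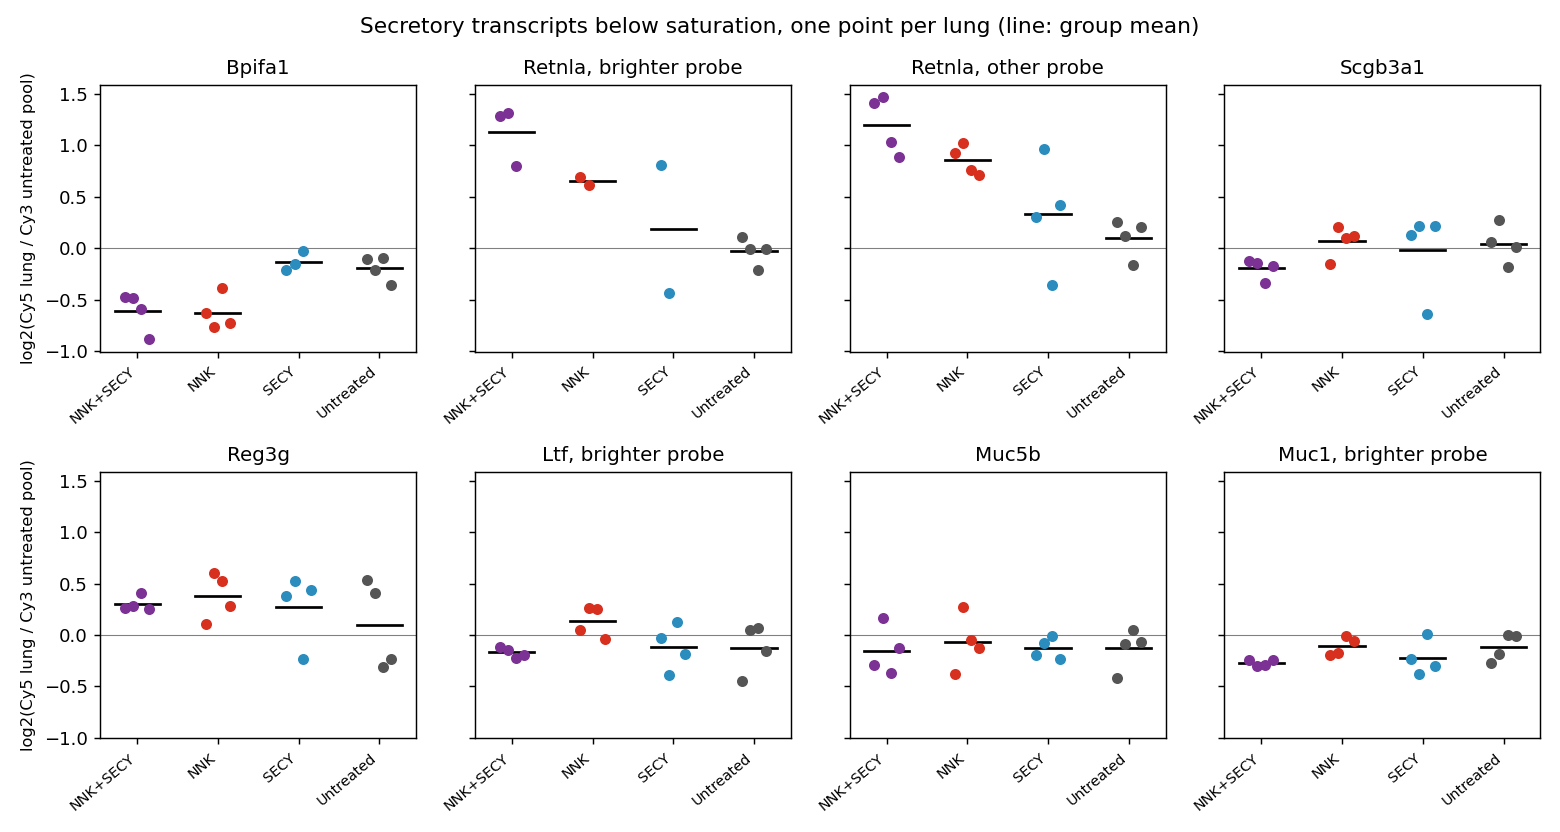
log2(Cy5/Cy3) of the 7 genes that were not saturated (both probes of Retnla), 1 point per lung and a line at the group mean. Bpifa1 is lower in the 8 NNK-injected lungs than in the 7 others measured, Retnla is above every Untreated lung in NNK+SECY and NNK lungs, and the other genes overlap between most groups. Spots flagged as outliers are left out.

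**Figure D3:**
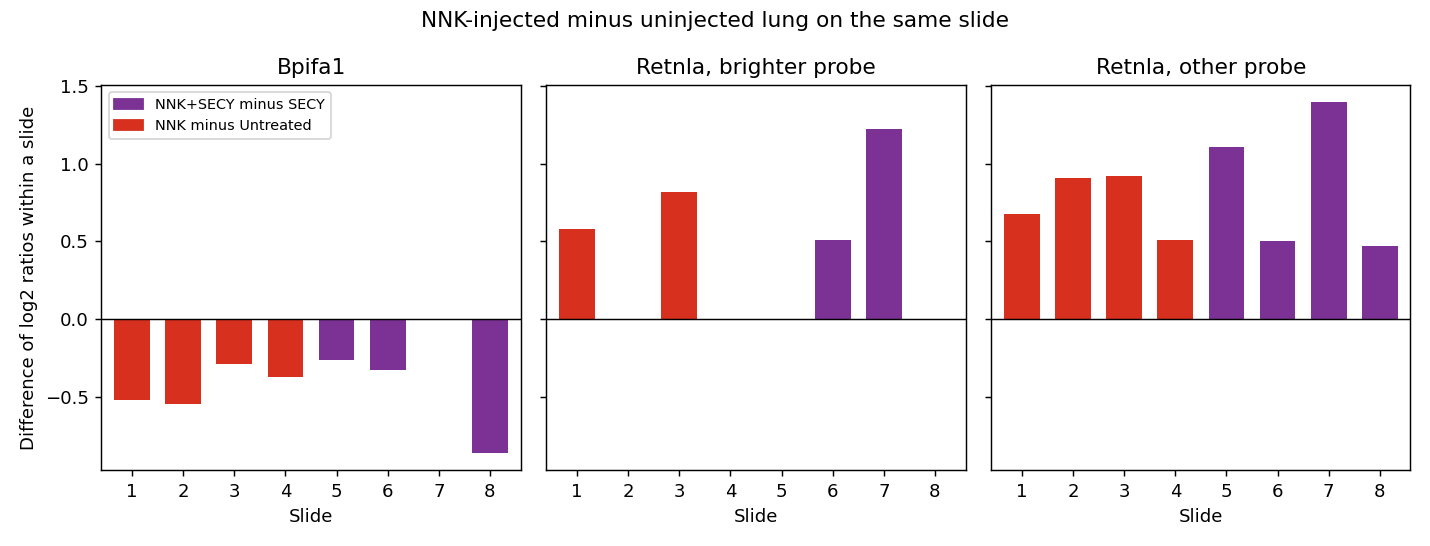
Difference of log2 ratios between the NNK-injected and the uninjected lung of each slide, as NNK minus Untreated on slides 1 to 4 and NNK+SECY minus SECY on slides 5 to 8. Bpifa1 is below 0 on 7 of 7 slides and the other Retnla probe above 0 on 8 of 8. A gap marks a slide with a flagged spot.

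Because NNK-injected and uninjected lungs share slides, the NNK effect was also averaged over both diets, a contrast added after the values were seen. In it Bpifa1 fell by 0.46 (SE 0.0725, adjusted p = 0.0136), and with slide as a block it was at -0.46 ± 0.0715 and just missed the threshold (adjusted p = 0.0521). Retnla was at 0.81 ± 0.19 (adjusted p = 0.187) on the probe in the model and at 0.78 ± 0.12 with slide as a block (adjusted p = 0.110). Its other probe passed at 0.81 (adjusted p = 0.02215). Without SECY 3 the Retnla value was 0.50 (adjusted p = 0.118), and without SECY 2 it was 1.12 (adjusted p = 0.00486). In this contrast 0.283% of genes passed, and 0.179% with the block. Scan day follows NNK here too.

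Scgb1a1 and Scgb3a2, at or near the ceiling, are left out of the counts over members (neither passed in any comparison). Of the other members, 2 of 7 passed in NNK+SECY against Untreated (Bpifa1 lower, Retnla higher), where 1.6% of the genes tested passed in either direction. At an unadjusted p under 0.05 the same comparison held 2 of 7 members and 9.23% of genes. In NNK against Untreated 0 of 7 passed (limma), where 0.32% of genes did, and 3 of 7 had an unadjusted p under 0.05, as did 5.04% of genes. In SECY against Untreated 0 of 7 passed, where 0.278% of genes did, and 0 of 7 had an unadjusted p under 0.05 (8.11% of genes). Against NNK, NNK+SECY gave 0 of 7 where 1.75% of genes passed, with 1 of 7 under an unadjusted 0.05 (9.89% of genes). Against SECY, NNK+SECY gave 0 of 7 where 0.00942% passed, with 2 of 7 under an unadjusted 0.05 (6.14% of genes). The interaction, which is the NNK effect on the selenocystine diet minus that on the basal diet, was called for 0 of 7 members, where 0.00471% of genes were, with 0 of 7 under an unadjusted 0.05 (4.6% of genes). It was -0.05 ± 0.15 for Bpifa1 and 0.26 ± 0.38 for Retnla, with 95% intervals of -0.36 to 0.26 and -0.58 to 1.102. Retnla had 2 NNK and 2 SECY values in it, and 1 array turned either direction. For Retnla it was 0.88 without SECY 2 and -0.36 without SECY 3, and for Bpifa1 it ranged from -0.09 to 0.05, above 0 without Untreated 4, NNK 3, SECY 4 or NNK+SECY 4.

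Groups that did not overlap were found for 2 of 7 members in NNK+SECY against Untreated (6.87% of genes), 2 of 7 in NNK against Untreated (4.14%), 0 of 7 in SECY against Untreated (4.15%), 3 of 7 in NNK+SECY against NNK (8.76%) and 1 of 7 in NNK+SECY against SECY (3.01%). These were Bpifa1 in NNK+SECY and NNK against Untreated and in NNK+SECY against SECY, Retnla in NNK+SECY and NNK against Untreated and in NNK+SECY against NNK, and Ltf and Muc1 in NNK+SECY against NNK. Flagged spots left Retnla with 3 NNK+SECY and 2 NNK values, and Bpifa1 with 3 SECY values. Smaller groups lie apart more easily, so the share of genes is not a like measure there. In NNK+SECY against NNK, Retnla and Muc1 overlapped on their other probes, and Ltf did not. The median log2 fold change of these 7 members was -0.05 in NNK+SECY against Untreated, 0.06 in NNK against Untreated and 0.00 in SECY against Untreated, beside 0.00 for all genes in each of the 3.

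**Figure D4:**
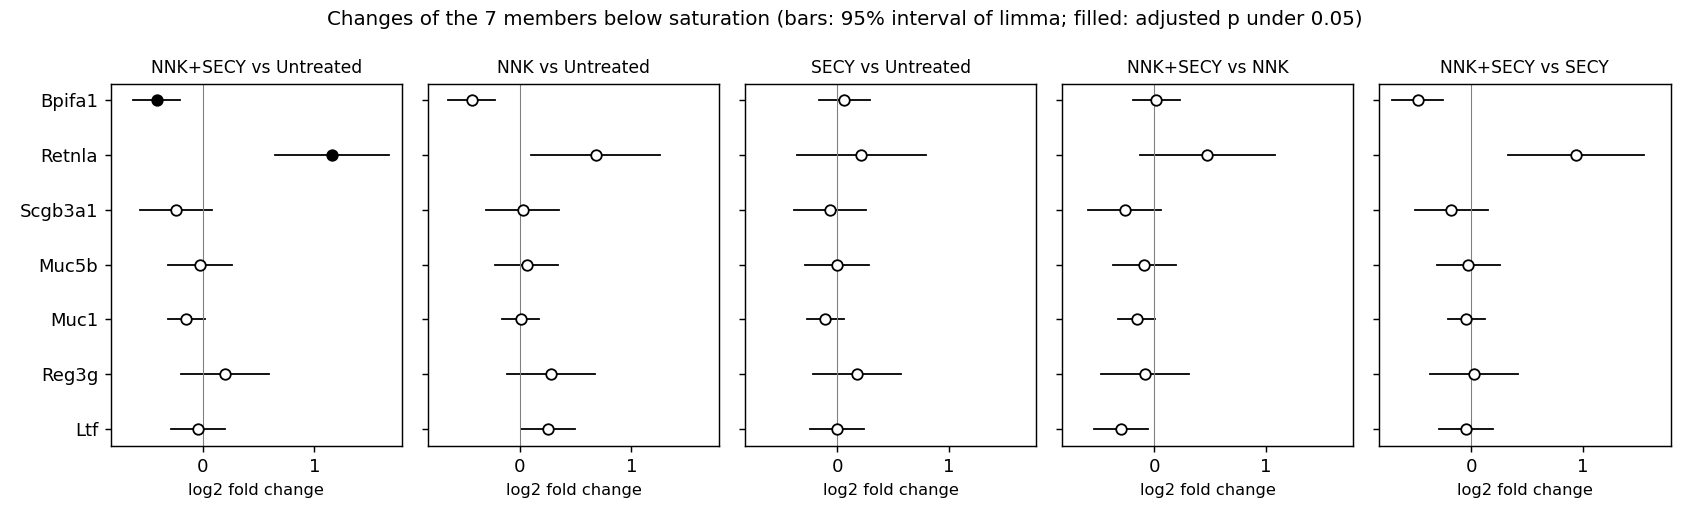
log2 fold change of the 7 members that were not saturated, with the 95% interval of the limma model, in the 5 comparisons. Filled points passed an adjusted p of 0.05: Bpifa1 and Retnla in NNK+SECY against Untreated.

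The antimicrobial genes Ltf and Reg3g passed in no comparison. Ltf encodes lactoferrin, an iron-binding antimicrobial protein that neutrophil granules also hold. On its brighter probe the log2 ratio was -0.12, -0.14, -0.22 and -0.19 in NNK+SECY lungs, 0.05, 0.26, 0.25 and -0.03 in NNK lungs, -0.03, -0.39, 0.13 and -0.19 in SECY lungs, and -0.45, 0.05, 0.07 and -0.16 in Untreated lungs. Every NNK+SECY lung lay below every NNK lung. The difference of NNK+SECY from NNK was -0.30 ± 0.11 (adjusted p = 0.334), and -0.36 ± 0.0973 on the other probe (adjusted p = 0.0877 over probes). NNK against Untreated was 0.25 ± 0.11 (adjusted p = 0.967) and 0.31 ± 0.0973 on the other probe (adjusted p = 0.507 over probes). The 2 Ltf probes lay within 0.17 of each other on all 16 arrays. None of the 10 neutrophil markers tested passed in any comparison, and 10 of 10 were below 0 in NNK+SECY against NNK (median -0.09). They were measured in the same lungs, so they are not separate observations. Their mean log2 ratio overlapped, at -0.29 to 0.13 in NNK+SECY lungs and -0.16 to 0.19 in NNK lungs. The part of neutrophils in the Ltf difference was not tested. Ngp and Camp, made in neutrophil granules, were too dim to be tested.

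Reg3g encodes a secreted lectin that binds Gram-positive bacteria. Its log2 ratio was 0.26, 0.28, 0.40 and 0.26 in NNK+SECY lungs, 0.11, 0.60, 0.52 and 0.28 in NNK lungs, 0.38, 0.53, -0.24 and 0.43 in SECY lungs, and 0.54, 0.40, -0.31 and -0.23 in Untreated lungs. The Untreated lungs fell into a high and a low pair, and their range held most of the treated values. NNK+SECY, NNK and SECY differed from Untreated by 0.20 ± 0.19, 0.28 ± 0.19 and 0.18 ± 0.19, with adjusted p-values of 0.871, 1.00 and 0.906.

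Muc5b, a gel-forming mucin of airway mucus, and Muc1, a mucin anchored in the cell membrane, passed in no comparison either. The log2 ratio of Muc5b ranged over -0.37 to 0.17 in NNK+SECY lungs, -0.38 to 0.28 in NNK lungs, -0.23 to -0.01 in SECY lungs and -0.42 to 0.05 in Untreated lungs. Its raw Cy5 signal of 177 to 289 was the lowest of the genes with 1 probe. The brighter Muc1 probe ranged over -0.30 to -0.24 in NNK+SECY lungs, -0.20 to -0.01 in NNK lungs, -0.38 to 0.01 in SECY lungs and -0.27 to -0.004 in Untreated lungs. Muc1 in NNK+SECY against NNK was -0.16 ± 0.0783 (adjusted p = 0.538), with groups that did not overlap on this probe. On the other Muc1 probe the difference was -0.07 ± 0.06 (limma, adjusted p = 0.773 over probes), and the groups overlapped. Over the 5 pairwise comparisons the 95% interval of Muc5b reached no further than -0.37 to 0.34.

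SECY 3 was at an edge of its group for most members. It was the lowest SECY lung for Scgb3a1, Scgb3a2, Reg3g and Retnla, the highest for Muc5b, Muc1 and Ltf, and between the others for the saturated Scgb1a1, with Bpifa1 flagged. The mean log2 ratio of 8 adipose markers was 0.54 on SECY 3 and -0.19 to -0.11 on the other SECY arrays. That of 8 alveolar macrophage markers was -0.38 on SECY 3 and -0.14 to -0.12 on the others, and that of 10 neutrophil markers was -0.39 on SECY 3 and -0.17 to 0.08 on the others. Arrays of another group also held such values. The adipose mean was 0.43 on NNK+SECY 1, and on NNK+SECY 4 the macrophage mean was -0.38 and the neutrophil mean -0.29. The part of these markers in the SECY 3 values was not tested. Retnla had 2 SECY values on the probe in the model, and its SECY against Untreated difference of 0.22 was 0.84 without SECY 3 (adjusted p = 0.0807) and -0.40 without SECY 2 (adjusted p = 0.641), so its direction rests on which of them is kept. For Reg3g the value was 0.35 (adjusted p = 0.427), against 0.18 with SECY 3. No member passed in this comparison with or without it.

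Of 27 other club cell markers, Aldh1a1 and Gsto1 rose in both selenocystine-fed groups against Untreated, and Upk3a rose in both NNK-injected groups. In NNK+SECY against Untreated 4 of 27 rose, 0 fell and 23 did not pass (median 0.11, all genes 0.00). In NNK against Untreated 1 rose and 26 did not pass (median 0.00), and in SECY against Untreated 2 rose and 25 did not pass (median 0.12, all genes -0.003). In NNK+SECY against NNK 3 rose, 1 fell and 23 did not pass (median 0.06), and in NNK+SECY against SECY 1 rose and 26 did not pass (median 0.01). Of all genes tested, 1.6% passed in either direction in NNK+SECY against Untreated, 0.32% in NNK against Untreated and 0.278% in SECY against Untreated. The share was 1.75% in NNK+SECY against NNK and 0.00942% in NNK+SECY against SECY.

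Aldh1a1, a retinal dehydrogenase, was at 0.60, 0.72, 0.64 and 0.81 in NNK+SECY lungs, 0.06, 0.19, 0.05 and 0.13 in NNK lungs, 0.69, 0.53 and 0.83 in SECY lungs (1 flagged), and -0.31, 0.01, 0.10 and 0.01 in Untreated lungs. All 7 measured lungs of selenocystine-fed mice were above all 8 others. It rose by 0.74 ± 0.0843 in NNK+SECY and by 0.73 ± 0.0910 in SECY against Untreated (adjusted p = 0.000249 and 0.000895). Gsto1, a glutathione transferase of the omega class, rose by 0.63 ± 0.0729 and 0.39 ± 0.0729 in the same comparisons (adjusted p = 0.000207 and 0.0262). Pir, a nuclear protein that binds iron, rose by 0.60 ± 0.11 in NNK+SECY against Untreated (adjusted p = 0.0104), while its dimmer probe differed by 0.06. Aldh1a1, Gsto1 and Pir also rose in NNK+SECY against NNK, by 0.58, 0.42 and 0.60.

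Upk3a is a uroplakin that marks a subset of club cells. Its log2 ratio was 1.06, 0.97, 0.91 and 0.91 in NNK+SECY lungs, 1.06, 0.57, 0.75 and 0.68 in NNK lungs, 0.21, 0.57, 0.11 and 0.10 in SECY lungs, and -0.01, 0.09, -0.08 and 0.10 in Untreated lungs. It rose by 0.94 ± 0.10 in NNK+SECY against Untreated, 0.74 ± 0.10 in NNK against Untreated and 0.72 ± 0.10 in NNK+SECY against SECY (adjusted p = 0.000148, 0.00396 and 0.0340), on a dim probe with a median raw Cy5 signal of 106. Lypd2, a LY6-family protein, fell by 0.54 ± 0.12 in NNK+SECY against NNK (adjusted p = 0.0194), where the Cy5 signal differed by -0.87 and the signal of the common pool by -0.32.

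Cyp2f2, Cbr2 and Cyp2a5, which are P450 and carbonyl enzymes of club cells, did not pass. Cbr2 was at the scanner's ceiling. Cyp2f2 was flagged as saturated in Cy5 on 0 arrays but lay near the highest signal of 65242, which limits its ratio. Cyp2f2, the abundant club cell P450, was at -0.19 ± 0.0767 in NNK+SECY against Untreated (adjusted p = 0.431) and -0.15 ± 0.0767 in NNK against Untreated (adjusted p = 1.00), with a median raw Cy5 signal of 59523. Cbr2, a carbonyl reductase, was saturated on 15 of 16 arrays, so no fold is given. Cyp2a5 varied widely within groups, with standard deviations of 0.40 in NNK+SECY, 0.68 in NNK, 0.62 in SECY and 0.61 in Untreated lungs. Its differences from Untreated were 0.11 ± 0.36 in NNK+SECY, -0.53 ± 0.36 in NNK and 0.41 ± 0.36 in SECY lungs (adjusted p = 0.979, 1.00 and 0.877).

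**Figure D5:**
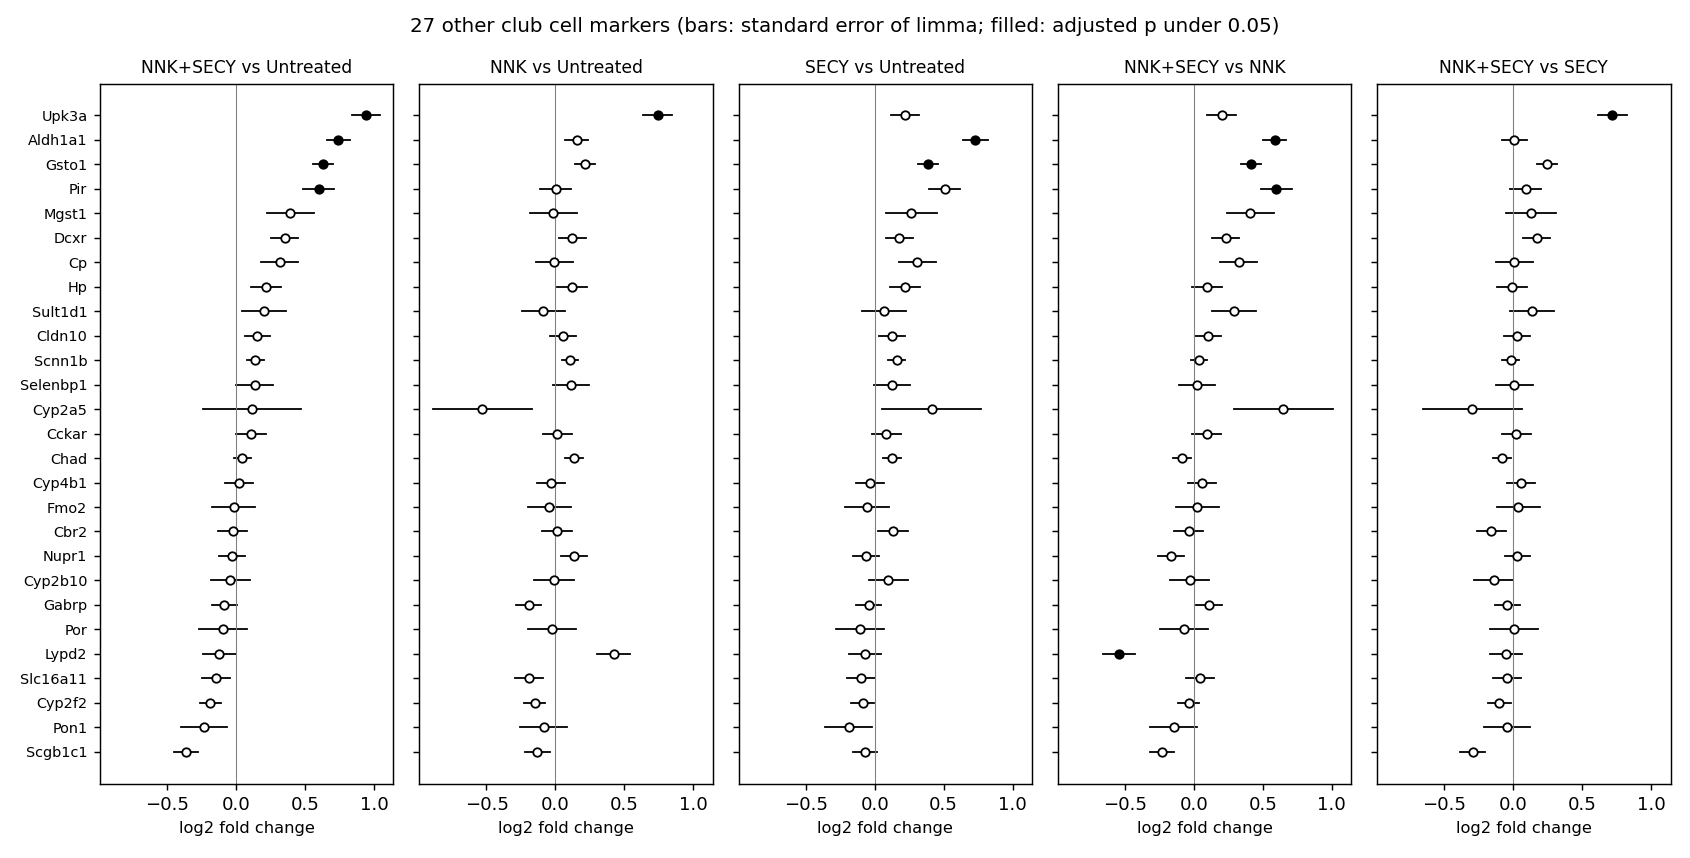
log2 fold change of 27 further club cell markers with the standard error of the limma model, in the 5 comparisons, ordered by NNK+SECY against Untreated. Filled points passed an adjusted p of 0.05: Upk3a, Aldh1a1, Gsto1 and Pir rose in NNK+SECY against Untreated. Upk3a also rose in NNK against Untreated and in NNK+SECY against SECY, and Aldh1a1 and Gsto1 rose in SECY against Untreated. In NNK+SECY against NNK, Aldh1a1, Gsto1 and Pir rose and Lypd2 fell. Cbr2 is saturated on 15 arrays.

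Few genes of the other lists passed. Of all genes tested, 0.32% passed in NNK against Untreated, 1.6% in NNK+SECY against Untreated and 1.75% in NNK+SECY against NNK. Of 33 other airway mucus and host defence genes tested, 1 rose in NNK against Untreated and 1 fell in NNK+SECY against NNK, with medians of 0.00 and -0.04. Both calls were Lpo, lactoperoxidase, at 0.82 ± 0.14 (adjusted p = 0.0193) and -0.69 ± 0.14 (adjusted p = 0.0135), on 2 of 4 NNK arrays with a value. In NNK against Untreated the Cy5 signal of Lpo differed by 2.88 and that of the pool, which is the same RNA on every array, by 2.06. No gene passed among 17 transcription factors of secretory cells or 12 genes of the type 2 cytokine response, and the type 2 list had a median of -0.04 in NNK+SECY against Untreated and 0.03 in NNK against Untreated.

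Markers of cells that could also supply Bpifa1 or Retnla were set beside them. None of 8 alveolar macrophage markers passed, and the mean log2 ratio of that list was -0.38 to 0.08 in NNK+SECY lungs, -0.30 to -0.16 in NNK lungs, -0.38 to -0.12 in SECY lungs and -0.15 to 0.07 in Untreated lungs. The 4 NNK lungs lay below the 4 Untreated lungs on that mean, narrowly, with a highest of -0.1634 against a lowest of -0.1489. The NNK+SECY and SECY lungs overlapped the Untreated lungs. The part of the macrophage markers in the Retnla difference was not tested. None of 13 ciliated cell markers passed. Of these, 13 of 13 were above 0 in NNK against Untreated (median 0.12) and 11 of 13 in NNK+SECY against Untreated (median 0.17). The median over all genes was 0.00 in both. The ciliated markers were measured in the same lungs, so they are not separate observations. The mean of the ciliated list was 0.04 to 0.30 in NNK+SECY lungs, 0.13 to 0.22 in NNK lungs, -0.07 to 0.28 in SECY lungs and -0.03 to 0.13 in Untreated lungs. Each treated group overlapped Untreated on the ciliated mean, NNK with a lowest of 0.1254 against a highest of 0.1277. The part of the ciliated markers in the Retnla difference was not tested either.

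Of 9 basal and tracheal surface markers, 1 rose in NNK+SECY against Untreated and 1 in NNK against Untreated, in both cases Krt15, a keratin of basal cells, by 0.89 ± 0.11 and 0.58 ± 0.11 (adjusted p = 0.000708 and 0.0381). The mean of that list was 0.02 to 0.09 in NNK+SECY lungs, -0.02 to 0.05 in NNK lungs, -0.03 to 0.08 in SECY lungs and -0.10 to 0.01 in Untreated lungs. Of the 3 treated groups, only NNK+SECY did not overlap Untreated, with a lowest mean of 0.0154 against a highest of 0.0085. Krt15 is part of this mean. Its own group mean was 0.998 in NNK+SECY and 0.112 in Untreated lungs, and the list without Krt15 was not examined. The separation is therefore not shown for the other markers of this list. Among 4 gland markers tested, Lpo was the sole call, and Dcpp1, Prol1, Smgc and Prb1, which mark salivary and submucosal glands, were too dim to be tested. None of 9 alveolar type 2 or 8 adipose markers passed. The part of these cell types in the Bpifa1 and Retnla differences was not tested.

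The genes whose log2 ratios were most like those of each member are given as a description, over arrays that share slides, scan days and the reference pool. For Retnla on the probe in the model these were Cfap206, Drc3 and Cxcl17 (Pearson r 0.98, 0.97 and 0.96 over 11 arrays), and on its other probe Anxa8, Cfap52 and Hoatz (0.94, 0.92 and 0.91 over 16 arrays). Cfap206, Drc3 and Cfap52 are genes of motile cilia. For Bpifa1 they were Cfl2, Cops9 and Dnajc21 (0.85, 0.83 and 0.82 over 15 arrays). For the saturated Scgb1a1 they were Sftpc, Ptprz1 and Lars2 (0.95, 0.95 and 0.95), all of them saturated on 16 of 16 arrays. Scgb3a1 was most like Ap1s2, Snap23 and Ccdc47 (0.92, 0.89 and 0.88) and Scgb3a2 most like Snap23, Ctla2a and Ube2b (0.92, 0.90 and 0.89). These 2 secretoglobins correlated with each other at 0.84 over 16 arrays, with both at their lowest on SECY 3.

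For the other members the nearest genes were Sema3b, Acta2 and Krt80 for Muc1 (0.91, 0.91 and 0.90), Abhd2, Myzap and Smg8 for Muc5b (0.86, 0.82 and 0.81), Polr3k, Mkln1 and Srek1 for Reg3g (0.84, 0.84 and 0.83), and Olfr313, Nxph4 and Pip4k2c for Ltf (0.90, 0.89 and 0.87), each over 16 arrays.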

How the data were processed

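Lung RNA of 16 mice was measured on 16 2-colour Agilent arrays. Per the file headers, the authors extracted them with Feature Extraction 8.1.1.1. The deposited files give each spot's intensity per dye, not log-transformed, and the authors' dye-normalized log10 ratio (Cy5 over Cy3). The authors' value table holds deposited log2 ratios that match it within 0.005, so its direction is Cy5 over Cy3.

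Mean signals were corrected with limma's normexp (offset 50) and normalized within arrays by loess, with control and outlier-flagged spots at weight 0 and flagged spots then left out (R 4.3.3, limma 3.58.1). Saturated spots were kept and marked. Each gene was represented by its brightest probe and tested if it was well above background in Cy5 throughout 1 group or more. Channel signals are those after loess and Aquantile. limma (lmFit, eBayes) was fitted with a mean per group over 16 arrays, and p-values were adjusted by Benjamini-Hochberg over all genes, with a threshold of 0.05. Probe names were updated through RefSeq (GRCm38.p6). On simulated data with 200 of 21249 genes changed, 83% of changes of 0.5 and 98% of changes of 1 (log2) were recovered for NNK against Untreated. In the measured lungs, Retnla did not pass in that comparison at 0.68 (limma, adjusted p = 0.861). Its other probe did not pass at 0.75 (limma, adjusted p = 0.292 over probes). Whether the recovered shares hold for the measured arrays, with their shared slides and flagged spots, was not tested. The small number of arrays, 4 per group, limits the precision. The labels call the mice biological replicates.

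The members, gene lists, tests and alternatives were chosen with earlier results of these data known. All 9 members are named, and of each list up to 4 called members per comparison and Cyp2f2, Aldh1a1, Cbr2 and Cyp2a5 whatever their values. Alternatives were the background correction, normalization, filter, probe rule, samples in the fit and array weights. Further ones were slide as a block, a replicate block, robust eBayes, and each array left out. The slide block was a fixed effect in NNK against Untreated, NNK+SECY against SECY, the interaction and the averaged NNK contrast. In the other comparisons, whose groups share no slide, it was a random block, which cannot remove slide differences between the groups. Keeping flagged spots, the other probe and the averaged NNK contrast were added after the values were seen.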

Additional observations from a re-analysis of the deposited data

Results flagged for a closer look

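Among 32 groups of 4 values, 2 held an array far from the other 3 of its group (Dixon's test at the 95% level, which flags about 1 in 20 groups by chance). Scgb3a1 on SECY 3 was at -0.641, a gap of 0.900 of the group's range below the other SECY lungs. Reg3g on NNK+SECY 3 was at 0.405, a gap of 0.844 of the range above the other NNK+SECY lungs, in a group that spans 0.257 to 0.405.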

How the results depend on the processing

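No member changed sign where it was called. The count of members called in NNK+SECY against Untreated, 2 as reported (Scgb1a1 and Scgb3a2 were called under no setting), was 0 when computed from the processed signals, from the authors' value table or with robust eBayes with a trend, and 1 with a normexp offset of 16, with median centring, with no filter on dim probes, with only the arrays compared, with array weights and with slide as a block. It ranged from 0 to 1 when an array of either group was left out. The count in NNK against Untreated, 0 as reported, was 1 with the Cy5 signal alone (Bpifa1) and 1 with only the arrays compared (Retnla), and in NNK+SECY against SECY it was 0 to 1 with an array left out. For the averaged NNK contrast, added after the values were seen, the count of 1 was 2 with the mean over probes, 2 with outlier-flagged spots kept, 2 with the replicate block, 0 with slide as a block and 0 with robust eBayes, and 0 to 2 with an array left out. Same-numbered NNK and Untreated lungs share a slide, as do same-numbered NNK+SECY and SECY lungs, but the labels give the number no meaning and the deviations did not correlate in every pair (r of 0.46, 0.18, 0.36 and -0.01 for the 4 pairs of NNK and Untreated), and a replicate block left the count in NNK+SECY against Untreated at 2, with Bpifa1 at -0.41 and Retnla at 1.16. The cause of these changes was not tested. The ceiling of the scanner limits Scgb1a1, Scgb3a2, Cbr2 and Cyp2f2, and background limits Muc5b and Upk3a.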
